A study of Mus musculus with 16 samples.

Results

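The genes described here encode 10 proteins of milk and of the milk fat globule, out of 23609 genes in the table. They were chosen by name, with earlier results of these data known. They are the 5 caseins *Csn1s1*, *Csn2*, *Csn3*, *Csn1s2a* and *Csn1s2b*, the whey proteins *Wap* and *Lalba*, the mucin-like protein *Glycam1*, and 2 genes of milk fat secretion, *Btn1a1* and *Xdh*. All 10 were in the table and passed the filter of a mean value of at least 10 over the tumors. RNA-seq was performed on primary mammary tumors of female mice that carried the MMTV-PyMT transgene, in which the MMTV promoter drives the polyoma middle T antigen in the mammary gland. The wildtype x PyMT tumors carried 2 intact *Resf1* alleles, and the gene trap x PyMT tumors came from *Resf1* +/- littermates in which a lentiviral insertion in the first exon truncates the *Resf1* message and makes an EGFP-cre fusion. All animals were F1 offspring of MMTV-PyMT mice of the FVB/NJ strain and gene trap line mice (C57BL/6-Et(EGFP/Cre)16255Rdav), so both groups carried the transgene on a mixed background, and the gene trap line is a single insertion. Values of 5 wildtype and 5 gene trap tumors were used. These were 10 of the 16 labeled tumors, and no column could be matched to the labels of the others. Ages and lactation history were not given in the sources used here, and a tumor is a mixture of cells in which fewer cells of a type and less RNA per cell cannot be told apart.

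Milk is made by the luminal cells of the alveoli, which mature in pregnancy and lactation under prolactin. Prolactin acts through the kinase JAK2 and the transcription factor STAT5, which binds near casein genes and *Wap* together with other factors such as ELF5 and the glucocorticoid receptor. The caseins pack calcium and phosphate into micelles, alpha-lactalbumin (*Lalba*) completes lactose synthase, and butyrophilin (*Btn1a1*) and xanthine dehydrogenase (*Xdh*) take part in the release of fat droplets from the cell surface. MMTV-PyMT tumors arise from the mammary epithelium and retain luminal features.

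The deposited values are estimated reads per gene that the authors had normalized between tumors before deposition, here called normalized values, and the depth of each tumor is unknown. They summed to between 31995078 and 42153593 per tumor, and none of the values was 0. The gene that carries the insertion, *Resf1* (ENSMUSG00000032712), had values of 4215, 4397, 3881, 4487 and 3517 in the wildtype tumors and 4029, 3066, 3686, 3392 and 3409 in the gene trap tumors. The groups overlapped, and the log2 fold change of -0.22 (SE 0.09) had an unadjusted p of 0.0313 and an adjusted p of 0.9997 in limma. Of the luminal markers, *Krt8*, a keratin, lay between 16809 and 24801 and *Epcam*, an adhesion molecule, between 19190.3 and 25278 over the tumors, so epithelial transcripts were present in every tumor.

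In the GENCODE annotation the casein genes lie in one cluster on chromosome 5, in the order *Csn1s1*, *Csn2*, *Csn1s2a*, *Csn1s2b*, *Csn3*. Between *Csn1s2b* and *Csn3* lie *Prr27*, which had no values here, and *Odam*, an ameloblast-associated gene. *Wap* is on chromosome 11, *Lalba* and *Glycam1* are on chromosome 15, *Btn1a1* is on chromosome 13 and *Xdh* is on chromosome 17. Promoter sequences of 6 of the 10 genes, from 250 bases before to 50 bases after the start of the gene, were matched in RefSeq sequences of the build GRCm38.p6. The submitters' processing notes name mm39, so these coordinates are those of the RefSeq table. Because STAT5 acts on these genes, its palindrome of TTC and GAA with 3 free bases between them (TTCNNNGAA, which reads the same on both strands) was searched. The letters were found in 4 of the 6 promoters and in 8.30% of all 32851 promoters of the same length. They are shown in capitals, with the flanking bases in lower case, 5′ to 3′ on the strand of the gene.
Csn1s1: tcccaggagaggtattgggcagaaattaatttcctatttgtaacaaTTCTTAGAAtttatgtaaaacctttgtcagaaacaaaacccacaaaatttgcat
Csn2: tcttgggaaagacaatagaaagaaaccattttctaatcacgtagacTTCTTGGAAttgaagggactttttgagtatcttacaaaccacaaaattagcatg
Csn1s2a: ttatagtgctTTCTTAGAAttacaatgact
Glycam1: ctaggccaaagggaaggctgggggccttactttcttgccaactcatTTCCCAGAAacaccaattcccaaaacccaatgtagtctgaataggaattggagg
The *Csn1s1* stretch is chr5:87666062-87666161 (plus strand), with the match from -100 to -92 relative to the start. The *Csn2* stretch is chr5:87699465-87699564 (minus strand), with the match from -93 to -85. The *Csn1s2a* stretch is chr5:87774460-87774489 (plus strand) and lies after the start, with the match from 21 to 29. The *Glycam1* stretch is chr15:103565173-103565272 (minus strand), with the match from -145 to -137. The matched bases were the same in *Csn1s1* and *Csn1s2a*, TTCTTAGAA, and were TTCTTGGAA in *Csn2* and TTCCCAGAA in *Glycam1*. No match was found in the same window of *Wap* or *Lalba*. A TATA box (TATAAA) was found in 0 of the 6 windows on either strand and in 13.6% of all promoters, and the full NF1 palindrome was found in 0 of the 6 and in 0.0365% of all promoters. These are matches of letters and not measured sites. *Csn3*, *Csn1s2b*, *Btn1a1* and *Xdh* were not in the promoter table.

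To compare levels between genes, each value was divided by the length in kilobases of the longest coding transcript of the gene in GENCODE. *Csn3*, kappa-casein, which caps and stabilizes the micelle, was the highest by far. Its normalized value per kilobase had a median of 87655 and ranged from 79986 to 113159, and it ranked 7 of 15208 coding genes. *Csn3* made up between 93.3% and 99.5% of the summed level per kilobase of the 5 caseins (median 99.1%). Next came *Lalba* with a median of 7610.2 per kilobase (rank 122), *Xdh* with 3500.1 (rank 345) and *Wap*, the main whey protein of mouse milk, with 2176 (rank 613). *Btn1a1* had a median of 510.5 per kilobase and *Csn1s1*, alpha-S1-casein, of 467. The alpha-S2-like casein *Csn1s2a* followed with 176 and *Csn2*, beta-casein, with 143, and the lowest 2 were *Glycam1* with 37.1 and the other alpha-S2-like casein, *Csn1s2b*, with 8.59.

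Some neighbors in this order exchanged places between tumors. *Csn3* was above *Lalba* in 10 of 10 tumors, by a median ratio of 12.3 in level per kilobase, and *Lalba* was above *Xdh* in 10 of 10 tumors by a median ratio of 2.04. *Xdh* was above *Wap* in 8 of 10 tumors, and *Wap* was above *Btn1a1* in 10 of 10, by a median ratio of 4.66. *Btn1a1* exceeded *Csn1s1* in 6 of 10 tumors and *Csn1s2a* exceeded *Csn2* in 5 of 10, so the order within these 2 pairs was not larger than the spread between tumors. *Csn1s1* was above *Csn1s2a* in 10 of 10 tumors. *Csn2* was above *Glycam1* in 8 of 10, and *Glycam1* was above *Csn1s2b* in 10 of 10, with a smallest ratio of 1.07. The order was the same with coding length in place of transcript length. With undivided values, 4 of the 10 genes kept their place, since *Lalba* then ranked below *Xdh*, *Wap* below *Btn1a1* and *Csn1s2a* below *Csn2*.

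**Figure D1:**
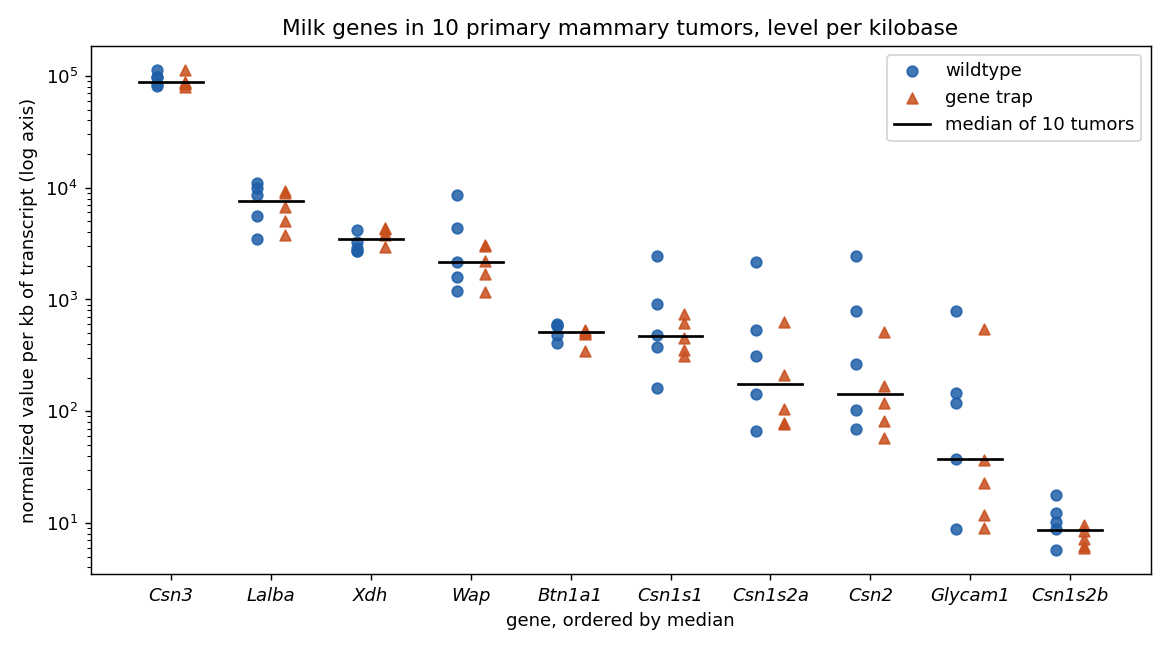
Normalized value per kilobase of transcript (log axis) of the 10 milk genes in 5 wildtype tumors (circles) and 5 gene trap tumors (triangles), with the median of all 10 tumors as a bar. *Csn3* has a median of 87655 and *Csn1s2b* of 8.59, and *Csn2*, *Csn1s2a* and *Glycam1* spread far more between tumors than *Csn3*, *Xdh* and *Btn1a1*.

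The genes also differed in how much they varied between tumors. The most abundant casein was the steadiest. *Csn3* had normalized values of 134849, 179150.0, 155812, 129222 and 157586 in wildtype tumors and of 134227, 127658, 138438, 180601 and 141356 in gene trap tumors. The highest and lowest tumors differed 1.41 fold. The standard deviation (SD) of its log2 value about the genotype means was 0.19, which was larger than that of 36.5% of the 21034 tested genes. By contrast, *Csn2* had normalized values of 92.4, 1038, 353, 135 and 3230.4 in wildtype tumors and of 157, 76.7, 109, 676 and 223 in gene trap tumors. It was high in wildtype tumors 5 and 2 and in gene trap tumor 4, and the highest and lowest tumors differed 42.1 fold. Its SD of 1.72 ranked 65 among the tested genes, where rank 1 is the largest.

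*Csn1s2a* followed the same tumors. Its normalized values were 132, 492, 286, 60.9 and 1982 in wildtype tumors and 96.5, 71.0, 72.3, 579 and 192 in gene trap tumors. The highest and lowest tumors differed 32.5 fold, with an SD of 1.62 (rank 80). *Csn1s1* had values of 229, 1297, 529, 676 and 3473 in wildtype tumors and of 641, 865, 445, 1049 and 494 in gene trap tumors. It was again highest in wildtype tumor 5, but lowest in wildtype tumor 1, with a 15.1 fold range and an SD of 1.10 (rank 232). *Csn1s2b* was low throughout, from 9.52 in wildtype tumor 4 to 29.7 in wildtype tumor 5, a 3.12 fold range.

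Of the whey proteins, *Wap* had values of 649, 4721, 1185, 875 and 2409.9 in wildtype tumors and of 932, 1662, 1213, 1689.6 and 645 in gene trap tumors. It was highest in wildtype tumor 2, with a 7.32 fold range and an SD of 0.92 on the log2 scale. *Lalba* had values of 2692, 7676, 6603, 4329 and 8465 in wildtype tumors and of 5132, 6936, 3853, 7248 and 2908 in gene trap tumors. It was lowest in wildtype tumor 1 and gene trap tumor 5, the tumors in which *Wap* was also lowest, with a 3.14 fold range and an SD of 0.63. The 2 genes of fat secretion varied little. *Btn1a1* ranged from 1188 in gene trap tumor 3 to 2049 in wildtype tumor 3, with an SD of 0.25. *Xdh* had values of 13386, 19393, 12404, 14969.7 and 12401 in wildtype tumors and of 19939.9, 17231, 19516, 17705 and 13632 in gene trap tumors, with an SD of 0.25. It was lowest in wildtype tumor 5, the tumor in which 6 of the 10 genes were highest.

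*Glycam1*, which is made in the mammary epithelium and also in the high endothelial venules of lymph nodes, had the largest spread. Its values were 93.3, 75.4, 24.2, 5.70 and 502 in wildtype tumors and 7.51, 5.77, 349, 23.4 and 14.7 in gene trap tumors. It stood out in wildtype tumor 5 and gene trap tumor 3, with an 88.1 fold range and an SD of 2.30, which ranked 28 of the tested genes. In gene trap tumor 3 *Csn2* was 109 and, of the other milk genes, *Xdh* was among the 3 highest tumors. In the same tumor all 6 measured lymphocyte markers had their highest value, with a summed value of 590.0 against between 87.0 and 319 in the other tumors. Of the 5 measured lymph node markers other than *Glycam1*, 4 were highest there, among them *Cr2*, a B cell and follicular dendritic cell receptor, at 263 and *Ccl21a*, a lymph node chemokine, at 173. Their sum was 861 in gene trap tumor 3 and 190.2 in wildtype tumor 5, against at most 319 in any other tumor. The part of these markers in the *Glycam1* values was not tested.

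Over the 10 genes the median SD was 0.77, beside 0.25 over all tested genes. The SD was above that median in 8 of the 10 genes, and 6 of the 10 were among the 10% of tested genes that varied most. These 6 were *Csn1s1*, *Csn2*, *Csn1s2a*, *Wap*, *Lalba* and *Glycam1*.

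**Figure D2:**
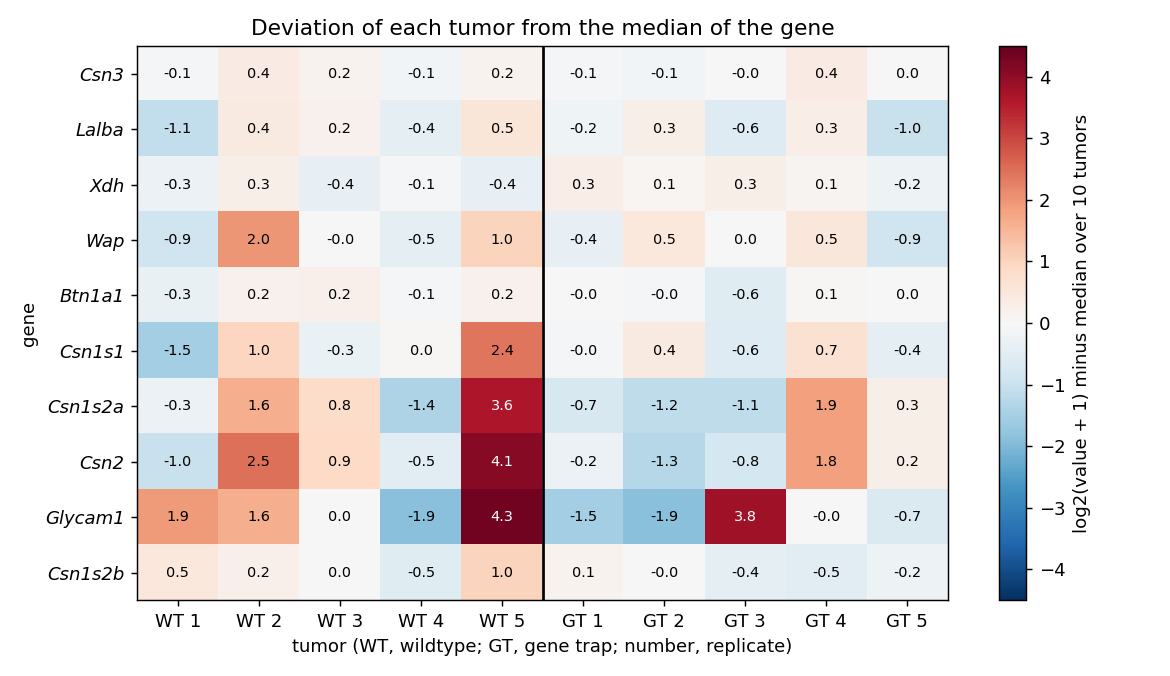
Deviation of log2(value + 1) from the median of each gene over the 10 tumors, for the 10 milk genes (rows, ordered by level per kilobase) in wildtype (WT) and gene trap (GT) tumors. Red marks values above the median, and WT 5 reaches 4.10 for *Csn2*, 3.63 for *Csn1s2a* and 4.34 for *Glycam1*.

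Wildtype tumor 5 weighed heavily on this pattern. It was the highest of the 10 tumors in 6 of the genes and among the 3 highest in 9 of them. Wildtype tumor 2 was also among the 3 highest in 9 genes and gene trap tumor 4 in 6. In wildtype tumor 5 all 5 measured skeletal muscle markers were also at their highest, with a summed value of 11412 against between 744 and 5001 in the other tumors. Summed endothelial markers were 4754 there against at most 4306 elsewhere, and summed macrophage markers 15733 against at most 15037. Adipocyte markers summed to 10067, the second highest value after 11229.9 in wildtype tumor 3, and luminal markers summed to 95431, within the range of the other tumors. The part of these markers in the milk gene values was not tested.

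To ask which of the milk genes rose and fell together, correlations of log2 values were computed for the 45 pairs over the 10 tumors. Most pairs correlated positively. The median Pearson r of the 45 pairs was 0.50, beside 0.00 (-0.0035) over all pairs of tested genes, and 23 of the 45 pairs (51.1%) reached an r of 0.5, beside 11.2% of all pairs. Without wildtype tumor 5 the median was 0.41 and 20 pairs reached 0.5. Among the 10 pairs of caseins, r was positive in 10 and at least 0.5 in 7. Of the 9 pairs with *Xdh*, 3 had a positive r and none reached 0.5 (median -0.14), but without wildtype tumor 5 these counts were 6 and 2 and the median was 0.16, as it was for the 9 pairs with *Glycam1*. Marker lists of cell types differed in their r with *Csn2*. The 5 skeletal muscle markers had a median r with *Csn2* of 0.68. Medians were 0.38 for endothelial, 0.33 for 4 adipocyte, 0.26 for fibroblast, 0.12 for macrophage and 0.11 for basal and myoepithelial markers. They were -0.17 for luminal, -0.29 for lymph node (*Glycam1* included) and -0.32 for lymphocyte markers. In the same order the medians were 0.35, 0.06, 0.08, -0.05, -0.28, 0.00, 0.21, -0.38 and -0.54 without wildtype tumor 5. The other 9 milk genes had a median r with *Csn2* of 0.68, which was 0.63 without it. The part of these cells in the co-variation was not tested. These counts describe the pairs, which share tumors and genes and are not independent.

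**Figure D3:**
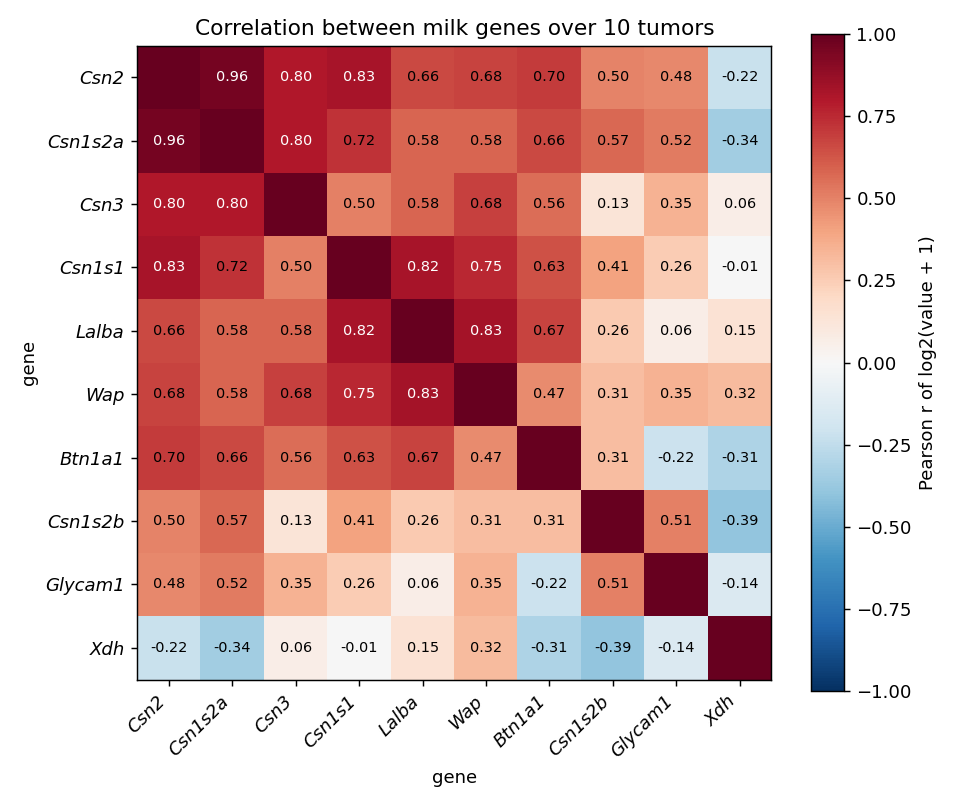
Pearson r of log2(value + 1) over the 10 tumors for each pair of the 10 milk genes, red for positive and blue for negative. *Csn2* and *Csn1s2a* have the highest r (0.96), and the row of *Xdh* lies between -0.39 and 0.32.

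*Csn2* and *Csn1s2a*, adjacent in the cluster, were the closest pair. Pearson's r was 0.96 and Spearman's rho 0.87 (permutation p 0.00014 and 0.00211, n = 10), and r was 0.91 without the 2 tumors farthest from the median of *Csn2*. When limma was fitted with genotype and the log2 value of *Csn2* as terms, *Csn1s2a* was the 1 gene of 21033 (0.00475%) with an adjusted p under 0.05. Its slope was 0.90 (SE 0.09) log2 units per log2 unit of *Csn2*, with an adjusted p of 0.0151. In the reverse fit on *Csn1s2a*, *Csn2* was likewise the 1 gene called (adjusted p 0.0139). The adjusted p rose above 0.05 when any of 4 tumors was left out. It was 0.383 without wildtype tumor 5, 0.0516 without gene trap tumor 3, 0.167 without gene trap tumor 4 and 0.0508 without gene trap tumor 5, while r stayed between 0.92 and 0.98 over all 10 omissions. Without the variance trend the adjusted p was 0.105, and no gene was called when replicate number was added as a term.

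At an unadjusted p under 0.05 in the same fit, 5 of the other 9 milk genes were called, beside 5.88% of all genes. They were *Csn1s2a*, *Csn1s1*, *Wap*, *Lalba* and *Btn1a1*, and each had a positive slope. *Csn1s1* had an r of 0.83 and a rho of 0.64 with *Csn2* (permutation p 0.00302 and 0.0537, n = 10), and r was 0.59 without the 2 tumors farthest from the median of *Csn1s1* and 0.63 without wildtype tumor 5 (adjusted p 0.666). *Csn3* had an r of 0.80 and a rho of 0.85 with *Csn2* (permutation p 0.00612 and 0.00277, n = 10), and r was 0.93 without the 2 tumors farthest from the median of *Csn2*, but its slope was only 0.09 (SE 0.04, adjusted p 0.848). Under quantile normalization the r of *Csn3* with *Csn2* was 0.59. The r of *Csn2* with *Btn1a1* was 0.70, with *Wap* 0.68, with *Lalba* 0.66, with *Csn1s2b* 0.50 and with *Glycam1* 0.48. Without wildtype tumor 5 the r with *Csn1s2b* was -0.03 and that with *Glycam1* was 0.11. *Xdh* had an r of -0.22 with *Csn2* (rho -0.21, permutation p 0.535 and 0.561, n = 10), which became 0.14 without wildtype tumor 5.

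The whey proteins formed another close pair. *Wap* and *Lalba* had an r of 0.83 and a rho of 0.90 (permutation p 0.00222 and 0.0009, n = 10), and r was 0.89 without the 2 tumors farthest from the median of *Wap*. In the limma fit on *Wap* the adjusted p of *Lalba* was 0.571. *Lalba* also followed *Csn1s1*, with an r of 0.82 and a rho of 0.94 (permutation p 0.00127 and 0.00028, n = 10), an r of 0.77 without the 2 tumors farthest from the median of *Csn1s1* and an adjusted p of 0.418 in the fit on *Csn1s1*. Removing the genotype means changed these values little, to 0.83 for *Wap* with *Lalba*, 0.82 for *Csn1s1* with *Lalba* and 0.95 for *Csn2* with *Csn1s2a*. With 5 tumors in each group, no correlation within a genotype was computed.

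**Figure D4:**
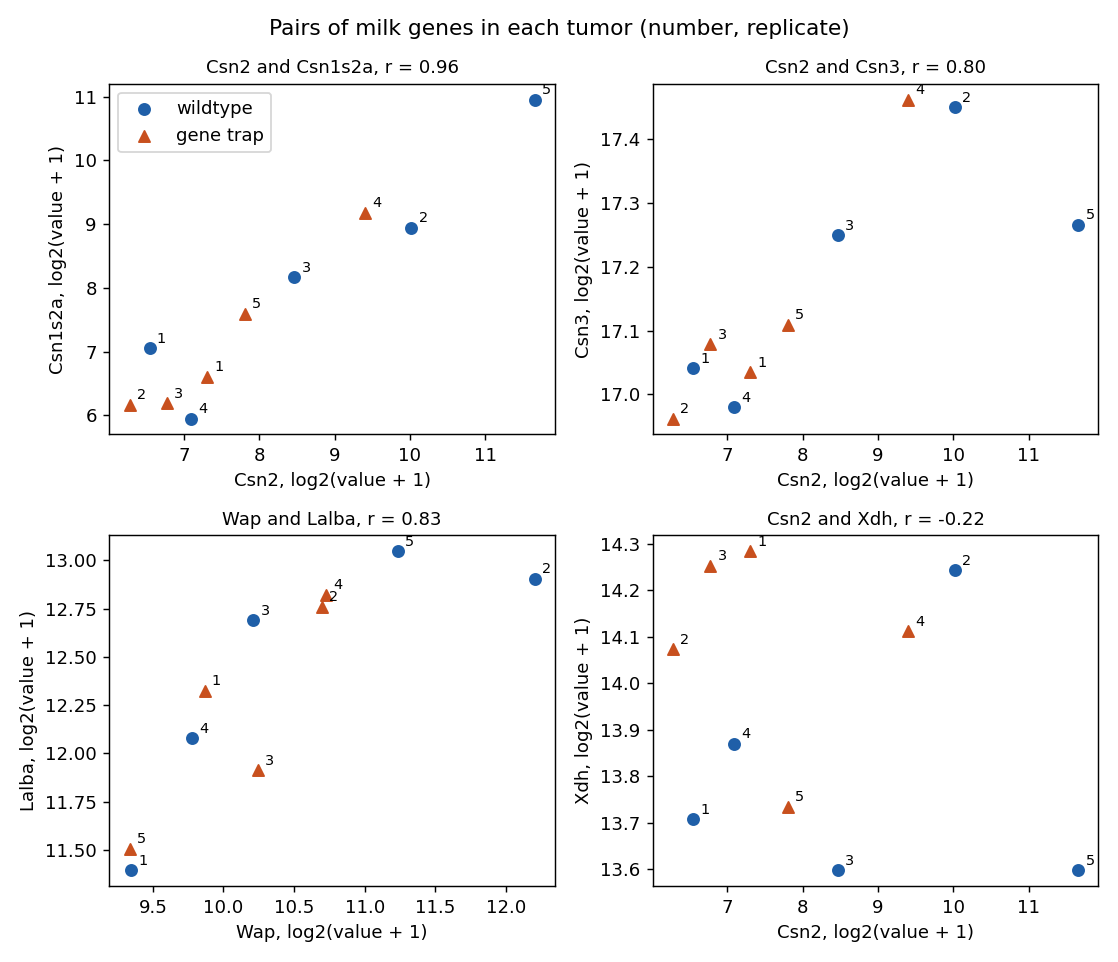
Log2(value + 1) of 4 pairs of milk genes in each tumor, wildtype as circles and gene trap as triangles, with the replicate number beside each point. *Csn1s2a* rises with *Csn2* (r 0.96) and *Lalba* with *Wap* (r 0.83), *Csn3* follows *Csn2* (r 0.80) over a range of less than 1 log2 unit, and *Xdh* has an r of -0.22 with *Csn2*.

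Other genes with the most similar pattern were named by the highest r with each milk gene among all tested genes. These are the highest of 21033 values of r over 10 tumors, a selection that by itself yields high r. In the limma fits on each milk gene, only *Csn2* and *Csn1s2a*, with each other, had an adjusted p under 0.05 among the genes of this paragraph. Some had low values, such as *Vmn2r57* (10.4 to 24.5), *Ano3* (16.7 to 31.3), *Fbxo47* (6.80 to 32.5) and *Dusp13* (2.64 to 38.8). For *Csn2* they were *Csn1s2a* (0.96), *Ano3*, a membrane protein of the anoctamin family (0.96), *Slc13a3*, a dicarboxylate transporter (0.91), *Dek*, a chromatin protein (0.90), and the predicted gene *Gm16589* (0.90). *Csn1s2a* shared *Ano3* (0.96) and was followed by *Csn2* (0.96) and *Capza2* (0.93). The genes nearest to *Csn3* were *Eif3e*, a translation factor subunit (0.95), *Bloc1s2-ps* (0.94) and *Wdr34* (0.93). *Csn1s1* was nearest to *Mlf1* (0.95), *Dusp13* (0.93) and *Ptges*, a prostaglandin synthase (0.92), and *Csn1s2b* to *F420014N23Rik* (0.91), *Gm6653* (0.89) and *Plgrkt* (0.88). *Lalba* was nearest to *Vmn2r57* (0.98), *Lipa*, the lysosomal acid lipase (0.97), and *Tcf24* (0.965). *Glycam1* was nearest to the unnamed gene ENSMUSG00000120580 (0.96), *Icam2*, an endothelial and leukocyte adhesion molecule (0.89), and *Gimap6*, a gene of lymphocytes (0.88). *Btn1a1* was nearest to *Fbxo47* (0.94), *Adipor2* (0.91) and *Rnf7* (0.90), and *Xdh* to *Camkk2* (0.92), *Kctd20* (0.92) and *Sh2d5* (0.91). Only *Csn2* and *Csn1s2a* had another milk gene among their nearest genes named here.

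*Wap* had the most genes past the threshold. In the limma fit on *Wap*, 4 of 21033 genes (0.019%) had an adjusted p under 0.05. The acute-phase genes *Saa2* (r 0.96, slope 0.76, adjusted p 0.0118) and *Saa1* (r 0.94, slope 0.62, adjusted p 0.0415) and the amino acid oxidase *Lao1* (r 0.93, slope 0.89, adjusted p 0.0415) rose with *Wap*. *Comp*, a cartilage matrix protein, fell as *Wap* rose (slope -1.24, adjusted p 0.0415). *Saa1* and *Saa2* are near-identical copies whose reads may be split between them, so they are uncertain as separate results. The count of genes called lay between 0 and 4 when each tumor was left out, with 0 called without wildtype tumor 1 or wildtype tumor 4. It was 1 without wildtype tumor 2, 3 or 5 or gene trap tumor 2, 3 or 4. When replicate number was added as a term, it was 0.

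The comparison of gene trap with wildtype tumors asked whether a gene trap insertion in 1 *Resf1* allele went with a change in milk genes. No milk gene changed past the threshold, with 0 of 10 at an adjusted p under 0.05 (limma), beside 0% of the 21034 genes tested. At an unadjusted p under 0.05 there were also 0 of 10, beside 479 genes (2.28%) of all. It was 1 of 10 under 4 single omissions, *Xdh* without wildtype tumor 2 or gene trap tumor 5, *Csn1s2b* without wildtype tumor 4 and *Glycam1* without gene trap tumor 3. The groups overlapped in all 10 genes. The log2 fold change was below 0 in 9 of 10 genes, with a median of -0.34, beside 0.00 (0.0047) over all tested genes, of which 48.6% were below 0. Over omitted tumors the median of the 10 genes ranged from -0.55 without wildtype tumor 1 to -0.13 without wildtype tumor 2, and it was -0.16 without wildtype tumor 5 and -0.19 without gene trap tumor 5. In the last 3 of these omissions 8 of 10 genes were below 0. Because the milk genes move together over tumors, these 9 are not 9 independent observations. Some markers of other cells in the gland also had values below 0, with a median log2 fold change of -0.39 for basal and myoepithelial markers (8 of 8 below 0), of -0.44 for adipocyte markers (4 of 4) and of -0.11 for endothelial markers (6 of 6). Macrophage markers had a median of -0.11 (5 of 6 below 0) and lymphocyte markers of -0.15 (4 of 6). Fibroblast markers were above 0 (8 of 8, median 0.10), and lymph node markers, *Glycam1* included, had a median of 0.29 (2 of 6 below 0). Luminal markers had a median of 0.01 and skeletal muscle markers of 0.02, and 0 of all these markers were called. Their part in the milk gene values was not tested.

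The largest differences belonged to the genes with the largest spread. The normalized value of *Csn2* was 969.8 ± 1319 (SD, n = 5) in wildtype and 248 ± 246 (SD, n = 5) in gene trap tumors, with a log2 fold change of -1.24 (95% confidence interval -3.18 to 0.69, adjusted p 0.9997). *Csn1s2a* was 591 ± 795 against 202 ± 216 (SD, n = 5 each), a log2 fold change of -1.07 (-2.89 to 0.76). For *Glycam1*, 140.1 ± 205 stood against 80.1 ± 151 (SD, n = 5 each), a log2 fold change of -1.26 (-3.87 to 1.34). Over omitted tumors these log2 fold changes ranged from -1.79 to -0.52 for *Csn2*, from -1.63 to -0.38 for *Csn1s2a* and from -2.23 to -0.48 for *Glycam1*. All 3 were nearest to 0 without wildtype tumor 5. That of *Glycam1* was -2.23 (unadjusted p 0.0477) without gene trap tumor 3, the tumor high in lymph node markers. The interval of *Csn3* was far narrower, with a log2 fold change of -0.07 (-0.38 to 0.24) between 151324 ± 19959.7 and 144456 ± 20851 (SD, n = 5 each). *Lalba* (-0.16), *Btn1a1* (-0.15), *Csn1s1* (-0.31), *Wap* (-0.38) and *Csn1s2b* (-0.45) also had intervals that included 0. The sign of 3 of them depended on 1 tumor, since the log2 fold change was 0.21 for *Csn1s1* without wildtype tumor 5, 0.032 for *Wap* without wildtype tumor 2 and 0.032 for *Lalba* without gene trap tumor 5.

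*Xdh* was the 1 gene with a higher mean in gene trap tumors, at 17605 ± 2502 against 14511 ± 2924 (SD, n = 5 each). Its log2 fold change was 0.29 (SE 0.14, 95% confidence interval -0.02 to 0.59) with an unadjusted p of 0.0611 in limma and of 0.103 in the exact two-sided permutation test, which can reach 0.00794 at the lowest. Without wildtype tumor 2 it was 0.40 (unadjusted p 0.00622, adjusted p 0.989) and without gene trap tumor 5 it was 0.38 (unadjusted p 0.0157, adjusted p 0.990). All 5 gene trap tumors were above the wildtype median, while wildtype tumor 2 at 19393 was above 3 of them.

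**Figure D5:**
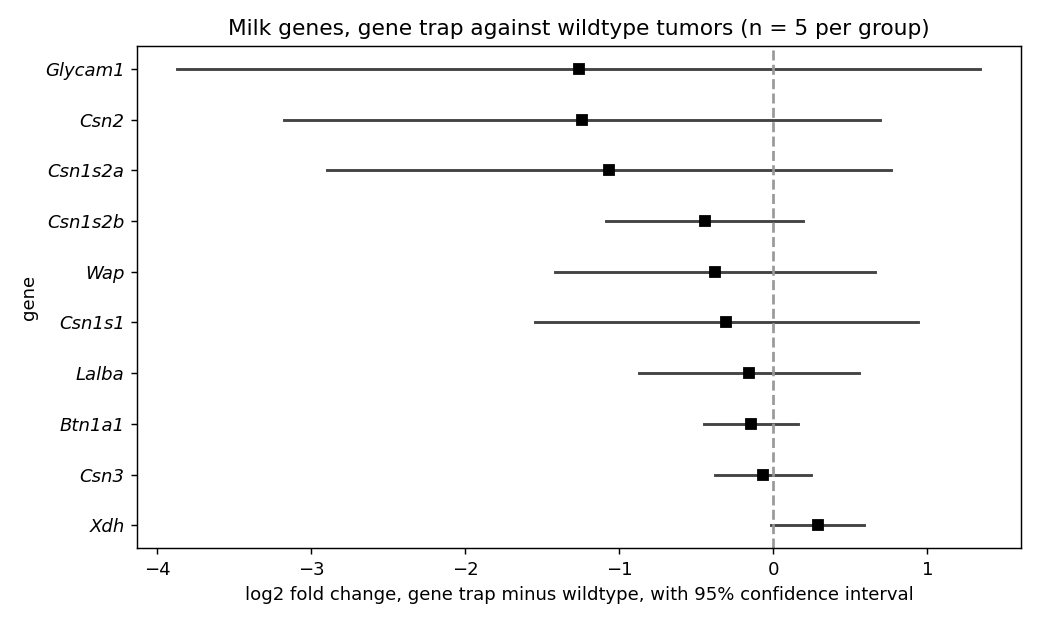
Log2 fold change (gene trap minus wildtype, squares) of the 10 milk genes with the 95% confidence interval from limma (lines), n = 5 tumors per group. Every interval includes 0, and the interval runs from -3.87 to 1.34 for *Glycam1* and from -0.38 to 0.24 for *Csn3*.

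Other genes of milk and of its control were examined as lists. Of 15 other secreted milk proteins, all were tested and 0 rose and 0 fell past the threshold, with a median log2 fold change of 0.00 (-0.0010) and a median r with *Csn2* of 0.08. The largest log2 fold changes were those of *Lpo*, lactoperoxidase (1.34, adjusted p 0.9997), and *Cel*, the bile salt-stimulated lipase of milk (-0.40, adjusted p 0.9997). In gene trap tumors *Lpo* had a median of 91.8 and a highest value of 2702, beside at most 185 in wildtype tumors. *Cel* also had the highest r with *Csn2* (0.81), followed by the membrane mucin *Muc15* (0.61), and the lowest were *Pigr*, which carries IgA into milk (-0.55), and *Wfdc3* (-0.34). Without wildtype tumor 5 these were 0.70, 0.06, -0.14 and 0.16. Of 23 genes of milk fat synthesis and secretion, all were tested and 0 were called in either direction, with a median log2 fold change of -0.10 and a median r with *Csn2* of 0.23. The highest r were those of the lipid droplet coat protein *Plin2* (0.84) and the medium-chain thioesterase *Olah* (0.68), and the lowest those of *Aldoc* (-0.60) and the lipogenic regulator *Srebf1* (-0.52). Without wildtype tumor 5 these were 0.92, 0.45, -0.22 and 0.08, and the median of the list was 0.08. *Aldoc* had the largest rise in log2 fold change (0.31) and the fatty acid transporter *Cd36* the largest fall (-0.61), each with an adjusted p of 0.9997.

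Of 20 genes of prolactin signaling, STAT5 and alveolar control, 19 were tested and 0 were called in either direction. The median log2 fold change was -0.04, between 0.73 for the progesterone receptor *Pgr* and -0.31 for *Socs3*, a feedback inhibitor of cytokine signaling. In gene trap tumors *Pgr* had a median of 119 and a highest value of 1105, beside at most 257 in wildtype tumors. The median r of the 19 genes with *Csn2* was -0.07, beside -0.01 over all genes. The highest were the alveolar transcription factor *Elf5* (0.70) and *Stat5a* (0.46), and the lowest the transcription factor *Nfib* (-0.68) and the signaling inhibitor *Socs1* (-0.60). Without wildtype tumor 5 these were 0.66, 0.30, -0.76 and -0.25. Of 7 neighbors of the casein cluster, 3 were tested and 0 were called in either direction. *Amtn* (amelotin) had a log2 fold change of -1.26 (unadjusted p 0.00112, adjusted p 0.9997) and an r of -0.03 with *Csn2*. *Odam* had a log2 fold change of 0.19 and an r of 0.06, and the sulfotransferase gene *Sult1d1* a log2 fold change of -0.43 and an r of 0.46. Without wildtype tumor 5 the r values were -0.04 for *Amtn*, -0.11 for *Odam* and 0.31 for *Sult1d1*. In gene trap tumors *Odam* had a median of 11.5 and a highest value of 129, beside at most 26.4 in wildtype tumors.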

How the data were processed

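Total RNA was isolated with Trizol and sequenced after TruSeq Stranded Total RNA preparation. The submitters' processing notes name mm39, Partek, STAR 2.7.8a and DESeq2, and the annotation is not given in the sources used here. The authors deposited a signal, estimated reads per gene already normalized by the median ratio method, so the depth is unknown and no count test was possible. Of 16 columns, 6 matched no sample label and were not used. Symbols were found for 22899 of 23609 gene IDs.

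Values were converted to log2 after adding 1, so fold changes of low genes are understated. Genes with a mean of at least 10 (21034) were fitted with limma 3.58.1 (R 4.3.3), with the variance trend, genotype as factor and Benjamini-Hochberg adjustment over all genes. Co-variation was fitted with the log2 value of a milk gene beside genotype. Permutation p of correlations came from 100000 two-sided resamples. Lengths were taken from GENCODE M21. The labels do not say how replicate numbers were given. The p-values of limma set a difference or slope against the variation between these tumors. Named genes were the milk genes, *Resf1*, the 5 genes with the highest r with *Csn2*, the 3 highest for each other milk gene, and in 4 lists the largest changes and the 2 highest and lowest r with *Csn2*. *Comp*, *Krt8*, *Epcam*, *Cr2* and *Ccl21a* were named after their values were seen. The genes and lists were chosen with earlier results of these data known. The fits were tested on simulated data. Alternatives were other pseudocounts and filters, quantile normalization, no variance trend, a replicate block and each tumor left out.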

Additional observations from a re-analysis of the deposited data

Results flagged for a closer look

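In groups of 5 tumors, 7 normalized values, taken without the log2 step, lay apart from the other 4 by more than Dixon's criterion allows. Among the 22 groups examined, about 1.1 would be flagged by chance if values followed a normal distribution. Values that range over many fold need not follow one, so the 7 flagged values are not set against that number. In gene trap tumor 4 these were *Csn2* at 676 (others 76.7 to 223), *Csn1s2a* at 579 (others 71.0 to 192) and *Csn3* at 180601 (others 127658 to 141356). In wildtype tumor 5 they were *Csn1s2a* at 1982 (others 60.9 to 492) and *Glycam1* at 502 (others 5.70 to 93.3). In gene trap tumor 3 they were *Glycam1* at 349 (others 5.77 to 23.4) and *Btn1a1*, which was low at 1188 (others 1690.4 to 1831). The genes share tumors, so these flags are not independent.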

How the results depend on the processing

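No gene was called between genotypes under any of 17 alternatives (between 308 and 692 at an unadjusted p under 0.05), and no milk gene was called in limma or in the exact permutation test. A minimum mean of 50 removed *Csn1s2b*. The log2 fold change of *Resf1* stayed between -0.28 and -0.17. Over omitted tumors the log2 fold change lay between -0.76 and 0.21 for *Csn1s1* (reversed without wildtype tumor 5), between -0.68 and 0.032 for *Wap* (reversed without wildtype tumor 2) and between -0.42 and 0.032 for *Lalba* (reversed without gene trap tumor 5). The r of *Csn2* lay between -0.028 and 0.68 with *Csn1s2b* and between -0.43 and 0.14 with *Xdh*, both reversed without wildtype tumor 5. Genes called with *Csn2*, 1 in the fit as reported, numbered 0 without the variance trend, 2 without the genotype term and from 0 to 1 over omitted tumors. With the replicate block 0 were called with *Csn2* (adjusted p of *Csn1s2a* 0.455) and 0 with *Wap*, in place of 4. Deviations of same-numbered tumors had a mean correlation of -0.01 (from -0.16 to 0.15). This cannot show whether same-numbered tumors share a factor, since the labels do not say how the numbers were given. The block changed no call between genotypes. By order of level, 10 of 10 genes kept their place over omitted tumors, 4 without division by length and 6 with means in place of medians. The median SD of the 10 genes stayed between 0.66 and 0.82. The causes of these shifts were not tested. The fits on *Wap* without each tumor and with the block were added after the data were seen. Depth is unknown, so the precision of the low values of *Csn1s2b* and *Glycam1* cannot be given.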
